A study of Homo sapiens with 5 samples.

Results

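Of the 9531 peaks called in RNA pulled down with the lncRNA SNHG5, 144 had their summit in a 5′ UTR: 18 in the Odd list, which is 1.99% of that list, and 126 in the Even list, which is 1.46% of its 8626 peaks. A peak was counted here when its summit, the position of highest coverage, lay in a 5′ UTR of a GENCODE basic transcript on hg19 and in no coding sequence or 3′ UTR of another basic transcript, a choice that uses position alone. The peaks came from RIA-seq, in which glutaraldehyde-crosslinked HCT116 cells, a human colorectal cancer line, were lysed and SNHG5 was retrieved with biotinylated DNA oligonucleotides complementary to it, and the RNA that came along was sequenced. The Odd list rests on 2 pooled libraries retrieved with the Odd oligonucleotides, and the Even list on 1 library retrieved with the Even oligonucleotides, which target other stretches of SNHG5. Both were called against the same 2 pooled control libraries, labelled INPUT and described in the methods as a luciferase oligonucleotide pool. All libraries came from the same untreated line, and neither list holds a value per replicate, so no difference could be set against a replicate spread, and intervals cover counting error only. The Odd libraries kept 4904959 tags after filtering, 2.50 times the 1965614 of the Even library, and the control kept 3986040. Because the Even list is longer and runs to lower scores, its best peaks by MACS p, as many as the Odd list holds, were also taken, and 18 of these (1.99%) lay in 5′ UTRs.

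The 5′ UTR is the part of an mRNA that the small ribosomal subunit scans on its way from the cap to the start codon, and structure, upstream reading frames or bound RNA there can change how well an mRNA is translated. In many human genes exon 1 lies in a CpG-rich promoter region, so 5′ UTRs near the start tend to be rich in G and C, whereas 5′ UTR exons further downstream, across an intron, often are not. SNHG5 is itself the spliced host transcript of small nucleolar RNAs and is noncoding.

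The sequences at which both pools placed a summit are shown first, because they are the 5′ UTR positions called in both lists, although the Even summit of the CDC42SE2 exon 1 line lies just inside the intron. Each line gives 30 bases of hg19 in the direction of the host gene, and the capitals run from the Odd summit to the Even summit.
PIK3R1 exon 2, chr5:67522259-67522288, plus strand: agaggactgTGGCACGCAGAggaagtggag
SPATS2 exon 1, chr12:49761337-49761366, plus strand: ggggcgacgaGGCGATTGCGggggcctggg
SPATS2 exon 2, chr12:49765040-49765069, plus strand: ctctatgaATGTGACTACCCTggttacctc
CDC42SE2 exon 1, chr5:130599840-130599869, plus strand: cggctgAGACAAAGGCGACGGTGagtgcaa
CDC42SE2 exon 2, chr5:130651727-130651756, plus strand: aaatctgcaaggAATAActactgacagtga
NBPF1 exon 1, chr1:16939934-16939963, minus strand: gcgagcgcggtGCTTTTGGGaacgcgggac

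A second set is shown because a 9-nt stretch of SNHG5, GAGGGTCGC at nucleotides 270 to 278 of an 818-nt SNHG5 transcript (chr6:86387201-86387209, minus strand), recurred in the Odd 5′ UTR peaks. Capitals mark the run shared with SNHG5, in the same direction, and every line reads 5′ to 3′ along the gene.
SNHG5, nucleotides 260 to 289: cattttgaatGAGGGTCGCtgtctgcccat
LUC7L2, chr7:139044777-139044806, plus strand: gagggcacGAGGGTCGCTGTCgggggctgt
COPA, chr1:160313024-160313053, minus strand: accgcgggaGAGGGTCGCTGacgtggaggc
NBPF15, chr1:148556073-148556102, plus strand: gaggggtaggTGAGGGTCGCgaggctgcgt
NBPF1, chr1:16939974-16940003, minus strand: gaggcgtaggTGAGGGTCGCgaggctgccc
SMAGP (Even list), chr12:51663899-51663928, minus strand: cgctggggcaGAGGGTCGCggcggctggga

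Summits in 5′ UTRs made up a small part of the summits on coding transcripts in either list. Of the 433 Odd summits in coding sequence or UTRs, 4.16% lay in 5′ UTRs (95% Wilson interval 2.65% to 6.47%), against 66.7% in coding sequence and 29.1% in 3′ UTRs. Among the best Even peaks the share was 4.86% of 370 (3.10% to 7.56%), and over the whole Even list 4.62% of 2728 (3.89% to 5.47%). The 3 intervals overlapped. By annotated length 5′ UTRs hold 9.19% of the bases of coding sequence and UTRs, above the upper end of each interval. The share of annotated bases takes no account of which genes HCT116 cells express.

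**Figure D1:**
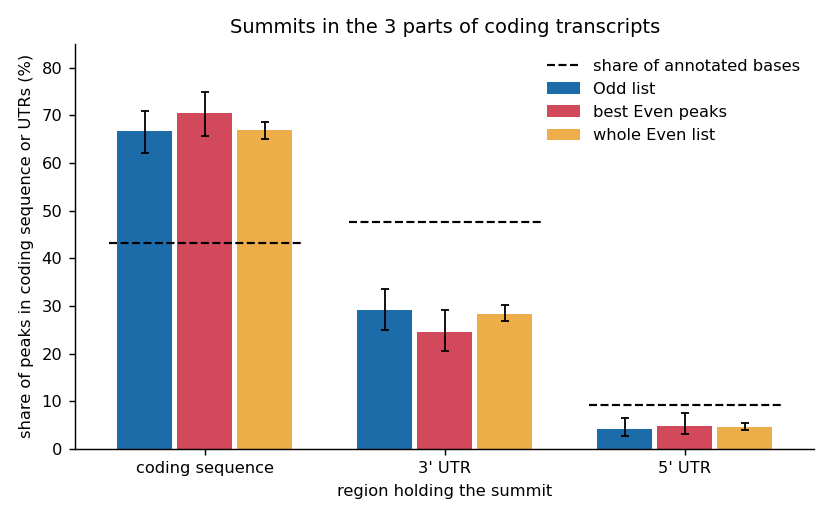
Share of peaks (%, vertical axis) whose summit lay in coding sequence, the 3′ UTR or the 5′ UTR, for the Odd list (433 peaks), the best Even peaks (370) and the whole Even list (2728). Bars are shares, error bars 95% Wilson intervals and dashed lines the share of annotated bases: the 5′ UTR bars sit at 4.16%, 4.86% and 4.62%, below the 9.19% line.

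The 18 Odd peaks fell in 14 genes and the 126 Even peaks in 118. CDC42SE2, NBPF1, PIK3R1, RNF41 and SPATS2 had a 5′ UTR summit in both lists, or 35.7% of the Odd genes and 4.24% of the Even genes. In coding sequence the genes with a summit in both lists were 37.6% of the Odd and 5.73% of the Even genes, and in 3′ UTRs 36.9% and 6.56%, so the 5′ UTR genes were near the other parts in this respect. Only PIK3R1 and SPATS2 were shared when the Even side was limited to the best peaks, where the 18 peaks fell in 17 genes. Several genes held more than 1 peak, SPATS2 with 3 in the Odd list, CDC42SE2 and RNF41 with 2 each, and in the Even list MORF4L2 with 3 and P4HA1, PIK3R1, PJA2, SMAGP, SPATS2 and UGDH with 2 each, so the peaks are not independent members.

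An Even peak overlapped 7 of the 18 Odd 5′ UTR peaks (38.9%, interval 20.3% to 61.4%), and 39.8% of all Odd peaks were overlapped, so the 5′ UTR peaks were near the whole list in this respect. With the best Even peaks the count was 3 of 18, beside 13.1% of all Odd peaks. Read from the other side, an Odd peak overlapped 6 of the 126 Even 5′ UTR peaks (4.76%), with 4.32% over the whole Even list, and 3 of the 18 best (16.7%), with 13.3% over the best Even peaks. In 6 of the 7 overlaps the summits lay 4 to 16 bp apart, and in the remaining one, SPATS2 exon 4, 214 bp apart. The Even partner had its own summit in a 5′ UTR in 5 of the 7. The Even summit of the SPATS2 exon 4 pair lay in coding sequence, and that of the CDC42SE2 exon 1 pair lay in the intron, which begins with the GTGagt of the CDC42SE2 exon 1 line above.

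PIK3R1, which encodes the p85 regulatory subunit of phosphoinositide 3-kinase, held the Odd 5′ UTR peak with the smallest p, at chr5:67521984-67522580. Its Odd pileup, the number of extended tags over the summit, was 247 and its fold enrichment over the control background 50.2. The Even peak at the same place, with its summit 10 bp away, had a fold of 25.4 on 49.8 tags. MACS scaled the Even pileups by 2.03 to the depth of the larger control, and a tag number here is a pileup with this scaling removed. Both summits lay in exon 2, 9880 bp (Odd) and 9890 bp (Even) from the start in the genome and 1389 nt and 1399 nt along the spliced transcript. PIK3R1 had no summit in coding sequence or the 3′ UTR in either list, and a second, weaker Even peak in exon 1 had a pileup of 12 and a fold of 4.06.

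SPATS2, which encodes a protein predicted to bind RNA in the cytoplasm, was the gene with the most Odd 5′ UTR peaks. The peak over exon 1, 26 bp from the start, had an Odd pileup of 178 and a fold of 18.1, beside an Even pileup of 105 and a fold of 11.7. Exon 2, of 63 nt, had an Odd pileup of 31 and a fold of 17.6, beside 22 and 11.2 in the Even list. Exon 4, which holds the start codon, had an Odd pileup of 144 and a fold of 6.88, and the overlapping Even peak had 119 and 7.48. The 5′ UTR of SPATS2 thus gave a summit in 3 exons in the Odd list, the last of them the exon with the start codon, and in 2 in the Even list, and the gene also held 10 Odd and 12 Even summits in coding sequence. SPATS2 exons 2 and 4 lay 3730 bp and 93267 bp from the start in the genome but 90 nt and 235 nt along the spliced transcript.

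CDC42SE2, a small effector protein of the GTPase CDC42, was covered over both of its first exons. In exon 1 the Odd pileup was 29 with a fold of 23.6 and the Even values were 28 and 28.4. In exon 2, 51971 bp away in the genome and 162 nt along the transcript, the Odd pileup was 52 with a fold of 21.1 and the Even values were 30 and 15.2. NBPF1, of the neuroblastoma breakpoint family, had an Odd fold of 5.49 and an Even fold of 2.87. The control libraries were the same in both lists, so the 2 folds of a gene are not independent.

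RNF41, an E3 ubiquitin ligase, had Odd peaks over exons 2 and 3, with pileups of 148 and 69 and folds of 13.4 and 28.0. Its Even peak lay over exon 1, with a pileup of 18 and a fold of 9.13, and overlapped neither. The ZNF749 peak, of a zinc finger gene, crossed a class border the other way. The Even summit lay in the 5′ UTR with a pileup of 111 and a fold of 37.2, and the Odd summit, 17 bp away, lay in coding sequence with 300 and 81.3.

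The Odd 5′ UTR peaks with no Even partner included the lowest fold. KITLG, the ligand of the receptor KIT, had this fold, 2.35, at a pileup of 246. COPA, a subunit of the coatomer of Golgi vesicles, had 288 and 11.1 at 71 bp from its start. PSMA1, an alpha subunit of the proteasome core, had 82 and 21.4, and CES2, a carboxylesterase, 114 and 9.90. The summits of PSMA1 and CES2 lay in a 5′ UTR of another transcript of the gene than the canonical one. LUC7L2, a splicing factor of the U1 particle, had 137 and 5.06. ZSCAN29, a zinc finger gene, had 53 and 12.7, MTUS1, a microtubule-associated protein, 55 and 7.47, and NBPF15 104 and 8.45. NBPF15 belongs to a family of near-identical copies. Of its peak, 46.7% of the 48-base words occur elsewhere in the genome, so the assignment of its reads to this copy is uncertain.

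Among the best Even peaks in 5′ UTRs, TMEM184C, a transmembrane protein, had the smallest p, with a pileup of 490 and a fold of 49.1, and SMURF2, a ubiquitin ligase of the TGF-beta pathway, had 468 and 15.6. CDC6, which licenses replication origins, had 322 and 19.0. POLD4, the small subunit of DNA polymerase delta, had 166 and 94. CBX1, a heterochromatin protein, had 156 and 67.3, and KDM4C, a histone H3 demethylase, had 176 and 35.3. NOP2, a nucleolar methyltransferase of ribosomal RNA, had 285 and 32.0. NDUFB3, a subunit of respiratory complex I, had the largest fold of all 5′ UTR peaks, 112, at a pileup of 97. MORF4L2, a chromatin protein, had peaks over exons 2 and 3 with folds of 23.5 and 9.42, and beyond the best set a peak over exon 4 with a fold of 4.19. CDCA2 had 184 and 20.5, PTPN11, the phosphatase SHP2, 233 and 9.33, SMAGP 68 and 29.7, and MBNL2, a splicing regulator, 141 and 7.10. No Odd peak overlapped these. In POTEE, with 46 and 23.3, 70.7% of the 48-base words occur elsewhere in the genome.

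The other 108 Even peaks in 5′ UTRs lay beyond the best and rested on few tags. With the scaling removed, their median was 6.90 tags over the summit (range 1.97 to 87.8), and 42 had fewer than 5. The last 5′ UTR peak inside the best set was that of POTEE, at rank 854 with a −log10 p of 46.1. Large folds occurred at low depth. SC5D, an enzyme of sterol synthesis, had a fold of 35.0 on 9.86 tags, and NKX6-1, a homeobox gene, 33.2 on 6.90 tags. At the other end UBE2D3, a ubiquitin-conjugating enzyme, had 63.6 tags and a fold of 1.69.

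**Figure D2:**
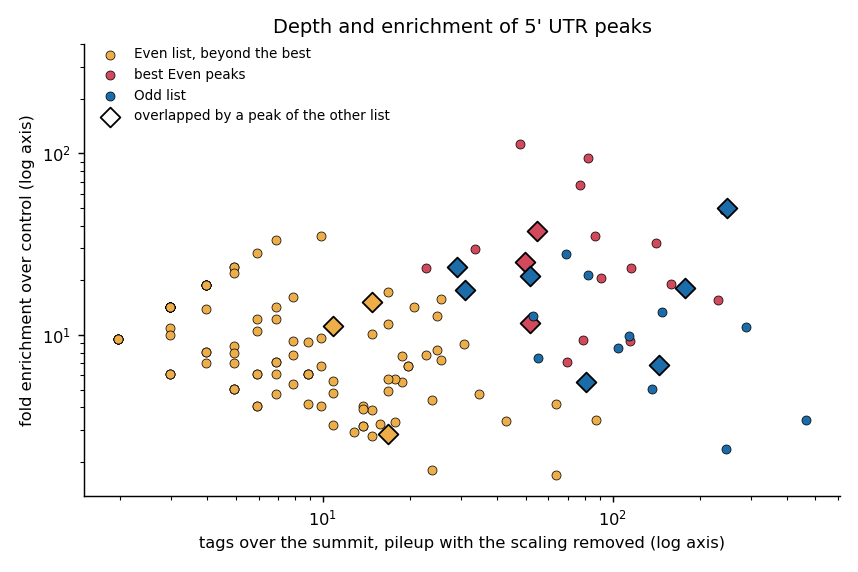
Tags over the summit (horizontal, log axis, pileup with MACS's scaling removed) against fold enrichment over the control (vertical, log axis) for each 5′ UTR peak. Blue points are the 18 Odd peaks, red the 18 among the best Even peaks and yellow the other 108, and diamonds mark peaks overlapped by a peak of the other list. The yellow points have a median of 6.90 tags, the red ones 80.4 and the blue ones 109.

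Width, pileup and fold of 5′ UTR peaks were set beside those of other summits on coding transcripts. The median width was 478 bp in the Odd list (95% interval of the median 451 to 540), where coding-sequence peaks had 519 and 3′ UTR peaks 531. It was 620 bp (570 to 738) among the best Even peaks, beside 611 and 731, and 336 bp (313 to 371) over the Even list, beside 342 and 358. The median Odd pileup was 109 (55.0 to 178), beside 115 in coding sequence and 96.0 in 3′ UTRs. It was 163 (105 to 235) among the best Even peaks, beside 162 and 154, and 18 (14 to 28.0) over the Even list, beside 22 and 24. The median Odd fold was 11.9 (6.88 to 21.1), beside 11.7 and 11.6. Among the best Even peaks it was 24.4 (15.6 to 37.2), beside 15.1 and 16.5, and over the Even list 9.38 (7.71 to 11.0), beside 6.94 and 5.75. Between the lists, widths and pileups are not on 1 scale, because tags were extended to 260 bp in the Odd and 290 bp in the Even list and depth differed.

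Most of the summits lay in exon 1, in 11 of 18 Odd, 13 of 18 best Even and 94 of 126 Even peaks. In the canonical transcripts of the annotation 20.2% of 5′ UTR bases lie beyond exon 1, and 7 of the 18 Odd and 32 of the 126 Even summits did. Exons of summits were numbered on the transcript with the nearest start, and 2 Odd and 28 Even summits lay in no canonical 5′ UTR, so these shares are not on 1 footing. The median distance from the transcription start was 206 bp in the Odd list (71.0 to 7651), 175 bp among the best Even peaks (87.0 to 1472) and 128 bp over the Even list (100 to 198). Summits in exon 1 and in later exons lay far apart on this measure. Exon 1 summits lay at a median of 78.0 bp (range 26 to 321) for Odd, 115 bp (10.0 to 302) for the best Even peaks and 88.0 bp (1.00 to 605) over the Even list. Summits in later exons lay at 7794 bp (3730 to 93267), 8053 bp (1472 to 53546) and 7082 bp (250 to 104073). Along the spliced transcript the same later-exon summits were at 181 nt, 400 nt and 186 nt. On the mRNA their distance from the cap was thus far shorter than in the genome. Some later-exon Even summits lay close to the start of another basic transcript of the gene, at 27 bp in PJA2 exon 2 and 32 bp in MTMR3.

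Many of the exons were shorter than the peaks over them. The exon that held the summit was shorter than the peak in 13 of 18 Odd, 16 of 18 best Even and 93 of 126 Even peaks, and a median of 35.6%, 45.8% and 46% of the peak lay in a 5′ UTR. The peak ran upstream of the start of that nearest transcript in 9 of 18, 13 of 18 and 68 of 126. The smallest exon was that of CDC6, 17 nt, under a peak of 667 bp, and KDM4C had an exon of 61 nt under 1159 bp, with 826 bp upstream of the same transcript's start. With the exons of all basic transcripts of the gene counted, 31.8% of the CDC6 peak and 47.5% of the KDM4C peak was exonic. MACS extended each tag along the genome and not along the spliced transcript, and the lists carry no strand. The bases outside annotated exons thus cannot be told apart as extension, unspliced RNA or RNA from another transcript.

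Base composition separated the 5′ UTR peaks of exon 1 from those of later exons. In the window from 250 bp before to 250 bp after the summit the median GC content was 60.3% in the Odd list (38.5 to 69.1), 62.0% among the best Even peaks (45.9 to 71.3) and 64.1% over the Even list (60.1 to 66.5). Coding-sequence peaks had 42.9%, 44.9% and 39.9% and 3′ UTR peaks 40%, 43.3% and 40.3%, while windows at all annotated starts had a median of 63.3%. Of the 11 Odd summits in exon 1, all but MTUS1 (35.7%) had 60.1% or more, up to 74.7% in CDC42SE2. The 7 in later exons ran from 34.1% (SPATS2 exon 2) to 48.5% (RNF41 exon 2), with PIK3R1 at 45.7%. The medians were 66.7% and 38.5% in the Odd list and 67.2% and 38.6% over the Even list, where exon 1 windows ran from 37.7% to 81.4% and later ones from 30.7% to 73.7%. CpG content followed the same split, with a median ratio of observed to expected CpG of 0.867 in exon 1 and 0.218 in later exons of the Odd list, and 0.800 and 0.25 over the Even list. The median fold was 9.90 in exon 1 and 17.6 in later exons for Odd, 32.0 and 23.3 for the best Even peaks, and 9.05 and 9.79 for the whole Even list.

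**Figure D3:**
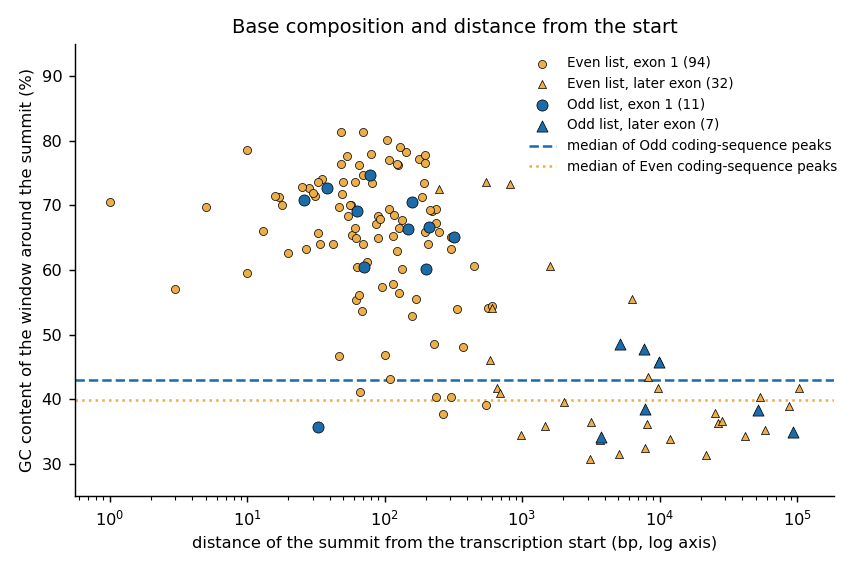
Distance of the summit from the transcription start in the genome (bp, log axis) against GC content of the window around the summit (%), for 18 Odd (blue) and 126 Even (yellow) 5′ UTR peaks. Circles are summits in exon 1 and triangles summits in later exons, and the lines are the medians of coding-sequence peaks, 42.9% (Odd) and 39.9% (Even). Most exon 1 summits lie above the lines, at most 605 bp from the start, and most later-exon summits lie near the lines.

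The GC box core GGGCGG, searched on both strands, occurred in the window of 33.3% of Odd (16.3% to 56.3%), 55.6% of best Even (33.7% to 75.4%) and 56.3% of all Even 5′ UTR peaks (47.6% to 64.7%). All annotated starts had 65.5%, and coding-sequence peaks 13.8%, 17.2% and 11.6%. GGCGGC occurred in 44.4%, 44.4% and 55.6%, beside 57.7% of starts, and the motifs share letters where GGGCGGC occurs.

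The longest exact run shared with any of the 11 basic SNHG5 transcripts had a median of 11 nt in the Odd and the Even 5′ UTR windows, with SNHG5's own letters as well as with its complement. Runs of 14 nt or more with SNHG5's letters were in 0 of 18 Odd windows, which allows a share of up to 16.7%, and in 10 of 126 Even windows (7.94%), beside 12.1% and 14% in coding sequence and 27.0% and 18.4% in 3′ UTRs. With the complement they were in 1 of 18 (5.56%) and 8 of 126 (6.35%), beside 11.1% and 12.7% in coding sequence and 23% and 17.1% in 3′ UTRs. Several of the long runs are repeated through the genome. The 39 nt of NOP2 occur 12258 times in hg19, the 34 nt of CNOT4 6223 times, the 26 nt of EXOSC8 107383 times, the 18 nt of OCLN 108735 times, and the 17 nt of RNF41, the 1 Odd case, 161822 times. The runs of PJA2 and RUFY3 are almost wholly made of T.

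A few runs lay close to the summit and occur 3 to 132 times in hg19. They are shown with the shared run, or in MBNL2 the run complementary to SNHG5, in capitals.
MBNL2 exon 2 (Even), chr13:97928138-97928167, plus strand: cgtcagCATTAAATATTCTCCCAaggagtg
SNHG5, nucleotides 618 to 647 of a 934-nt transcript: aacatcTGGGAGAATATTTAATGgaaaatc
RRAD exon 1 (Even), chr16:66959384-66959413, minus strand: gcagcagcAGCGGCGGCGGAAAccctaaag
RNF41 exon 2 (Odd), chr12:56610268-56610297, minus strand: ggagaatcTCTTCAGTGGCACtgagtggag
PSMA1 exon 1 (Odd), chr11:14541728-14541757, minus strand: cgtcgcccgGTGCCACGAGGTatgagagcc
The 17 nt of MBNL2 lay 3 bp from the summit and occur 5 times in hg19. The 14 nt of RRAD, a small GTPase of muscle, lay 22 bp from the summit and occur 3 times. The RRAD peak had a fold of 18.9 at a pileup of 8, which is 3.94 tags with the scaling removed. The 13 nt of RNF41 lay 44 bp from the summit (132 times) and the 12 nt of PSMA1 34 bp (56 times). In the paper's list of retrieval oligonucleotides, the RNF41 and PSMA1 runs are each complementary to part of an oligonucleotide. The MBNL2 run has the same letters as part of another, and the RRAD run matches none. Whether these peaks came from pairing with an oligonucleotide was not tested. The remaining long runs had 14 nt each. That of INF2 lay 57 bp from the summit and is also repeated, with 15356 occurrences in hg19. Those of MTMR3, NDUFB3, NKX6-1, UGDH and YWHAB lay 75 to 232 bp from the summit and occur 38 to 344 times.

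Among all 9-nt stretches of the 818-nt SNHG5 transcript, GAGGGTCGC was the most frequent in the Odd 5′ UTR windows, read along the gene. This stretch and the next one were chosen for being the most frequent, so their shares are high by choice and are given without a test. It occurred in 4 of the 18 windows (22.2%, 9.0% to 45.2%), those of COPA, LUC7L2, NBPF1 and NBPF15 shown above, where the lines of both NBPF genes are near-identical. In NBPF1 the run lay upstream of the annotated start, outside its 5′ UTR, and in the other genes inside it. It was in 2.77% of Odd coding-sequence windows, 1.64% of Odd 3′ UTR windows and 0.420% of the windows at annotated starts. In the Even list it was in 2 of 126 windows (1.59%), those of SMAGP and, again upstream of the start, NBPF1, and in 0.766% of best Even coding-sequence windows. In LUC7L2 the run extended to 13 nt and lay 7 bp from the summit, and the 13 nt occur 23 times in hg19. In COPA it extended to 11 nt, 72 bp away. The reverse complement occurred in 0 of the 18 Odd windows, a count that allows a share of up to 16.7%. The paper's list of retrieval oligonucleotides includes a sequence complementary to GAGGGTCGC and to the whole LUC7L2 run. Whether these peaks came from pairing with an oligonucleotide was not tested.

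In the Even 5′ UTR windows the most frequent stretch was GGCGGGTGG, which SNHG5 carries at nucleotides 44 to 52 and again from nucleotide 530. It occurred in 17 of 126 (13.5%, 8.6% to 20.5%), in 2 of the 18 best Even windows (11.1%) and in 2 of the 18 Odd windows (11.1%). It was in 4.6% of best Even coding-sequence windows, 8.99% of best Even 3′ UTR windows, 0.692% of Odd coding-sequence windows and 1.69% of the windows at annotated starts. The 9 nt occur 79375 times in hg19. The first place in SNHG5 is shown with the stretch in capitals, followed by examples. Their capitals mark the run shared with the first place in KIAA0930, and with the second place, which is not shown, in NKX6-1 and INF2.
SNHG5, nucleotides 34 to 63: cgagcgtctgGGCGGGTGGtaggaacaatg
KIAA0930, chr22:45636729-45636758, minus strand: tgctgtgtttGGCGGGTGGTggcggcggcg
NKX6-1, chr4:85420070-85420099, minus strand: ccagagggCAAGGCGGGTGGAggtgaggac
INF2, chr14:105165691-105165720, plus strand: cagcaacaGCCAAGGCGGGTGGgaatatat
The stretch lay 16 bp from the summit in KIAA0930, 84 bp in NKX6-1 and 57 bp in INF2. The oligonucleotides are complementary to SNHG5, and the paper's list of them includes a sequence complementary to GGCGGGTGG. Whether any of these peaks came from pairing of an oligonucleotide with such a stretch was not tested. Which pool each oligonucleotide belongs to was not worked out.

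Over all coding genes with a 5′ UTR, 0.0719% had an Odd and 0.606% an Even 5′ UTR summit, and counts in gene families were of 0 to 5 genes, too small to set a family apart. Of the 87 cytosolic and 78 mitochondrial ribosomal protein genes, the 54 RNA helicases and the 58 splicing factors of the SRSF, HNRNP, SF3 and SNRP families, 0 had a 5′ UTR summit in either list. Of 583 zinc finger genes 1 (ZSCAN29) had an Odd and 5 (0.858%) an Even 5′ UTR summit. Of 74 genes of the MAPK, CDK and PI3K families 3 (CDK1, CDK19 and PIK3R1, 4.05%) had an Even and 1 (PIK3R1, 1.35%) an Odd summit. Of 50 proteasome genes 1 (PSMA1, 2.00%) had an Odd and 0 an Even summit. The Even shares were 2.36% of 127 genes of the ubiquitin system, 2.22% of 90 small GTPases, 1.79% of 56 initiation factors, 1.15% of 87 histones and 0.539% of 371 solute carriers, with 0 Odd genes in each. PITRM1, GLE1 and STAU1 had no summit in a 5′ UTR in either list.

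Of the 14 Odd genes, 4 also held an Odd summit in coding sequence or a 3′ UTR, namely CDC42SE2, COPA, KITLG and SPATS2, and 31 of the 118 Even genes held an Even one. Of genes with a coding-sequence summit, 3.33% (Odd) and 10.4% (Even) held one in another part of the transcript, and of genes with a 3′ UTR summit 3.85% and 17.9%, but the parts differ in size and number of summits, so these shares are not on 1 footing. In 9 Odd (64.3%) and 83 Even genes the 5′ UTR was the only exonic part of the coding transcript with a summit in either list. With every gene at a summit counted, this held for 64.3% of 14 Odd and 71.3% of 122 Even genes. On that count coding sequence was the only part in 83.8% and 88.5% of its genes and the 3′ UTR in 78.5% and 79.6%. An Even summit in any exonic part was found in 6 of the 14 Odd genes (42.9%), beside 47.1% of all Odd genes with such a summit, and an Odd one in 9 of the 118 Even genes, beside 7.84% of all Even genes.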

How the data were processed

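The members, gene lists and motifs were chosen with earlier results of these data known. Per the paper, the authors removed adapters from single-end 50-nt reads (cutadapt), aligned the reads to hg19 (STAR) and ran MACS at p 0.001 with the control libraries pooled. The deposited lists name MACS version 2.0.9, and the Even list runs down to a −log10 p of 0.360, beyond that threshold. The pooled Odd peaks were post-processed with IDR, and the Even list, from 1 library after a failed replicate, was not. The deposited pileup is a coverage signal, scaled by MACS to the larger library, the deposited fold enrichment is its ratio to the local control, and the deposited −log10 p-value was used here to rank peaks. Columns of q-values were not used, and the tables had 0 columns of unassigned samples.

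Summits were placed in GENCODE version 44 basic transcripts on GRCh37, a later annotation than the study, with coding sequence before 3′ UTR before 5′ UTR. The best Even peaks are the 905 with the smallest p. Distance was taken from the nearest upstream start of a transcript whose 5′ UTR holds the summit. GC, CpG, motifs and SNHG5 runs were read from 501 bp around the summit, and overlaps of at least 1 bp came from bedtools 2.31.1. Intervals are 95% Wilson intervals for shares and order-statistics intervals for medians, and they cover counting error of peaks that share genes. Peaks were named by rule: the 10 with the smallest p and the 10 with the largest fold in each list, pairs shared between the lists, genes with 2 or more peaks, the study's main targets, and SNHG5 runs of 14 nt or more. The other Odd peaks named, other best Even peaks, UBE2D3, the genes of the 9-nt stretches, RNF41's and PSMA1's shorter runs, and the gene family members were named after their values were seen. No sequence on chromosome 8 is printed, and results of some named items, 1 Odd peak among them, are not reported here. Region classes, overlaps, runs and intervals were tested on simulated data. The software was Python 3.11.15, NumPy 2.4.6, pandas 2.3.3, SciPy 1.17.1, pysam 0.24.0, samtools 1.23.1, numba 0.67.0 and Matplotlib 3.10.9. The alternatives changed the class rule, the transcript set, the number of peaks used, the overlap rule, the GC window, the distance and the pileup scale, and 1 peak per gene was added after seeing the data.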

Additional observations from a re-analysis of the deposited data

How the results depend on the processing

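Of 50 alternative values, 34 stayed within the interval of the main value, or within 1.5 times a count, and 16 moved. When any overlap with a 5′ UTR and none with coding sequence or a 3′ UTR was asked for, the Odd count fell to 11 (2.31% of coding-transcript peaks) and the Even share to 3.72%. Counting any summit in a 5′ UTR, also where another transcript has coding sequence or a 3′ UTR, raised the Even count to 196 (7.18%). The best Even peaks, as many as the Odd list holds, gave 18 peaks, and medians of 620 bp width, 163 pileup and 24.4 fold. The conservative number of peaks of the methods gave 616 bp, 166 and 25.4 for Even. The Odd peaks overlapped by an Even peak were 3 with the best Even peaks and, with 1 peak per gene (chosen after seeing the data), 4 of 14. On the scale of tags per 1000000 the median pileup was 22.2 in the Odd and 4.52 in the Even list, a change of unit. Medians of GC content and distance stayed in their intervals under each alternative run. No paired analysis was possible because neither list gives replicate values, and no replicate could be left out for the same reason. Depth limits the Even list, whose 5′ UTR peaks had a median of 8.88 tags, and a peak absent from it was not shown to be absent from the RNA.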

Other observations

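The priority of coding sequence and 3′ UTR over 5′ UTR kept out 5 Odd peaks whose summit lay in a 5′ UTR of one basic transcript and in coding sequence or a 3′ UTR of another. They were in NPB, with a pileup of 68.0 and a fold of 16.1, MFF, with 79.0 and 7.13, CCDC112, with 50 and 13.5, BID, a pro-apoptotic BCL2 family gene, with 58.0 and 9.43, and DKC1, the pseudouridine synthase dyskerin, with 62.0 and 6.30. The GC content of their windows was 39.7% in MFF, 45.1% in DKC1, 56.1% in NPB, 63.3% in BID and 73.5% in CCDC112.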
